A study of Mus musculus with 4 samples.

Results

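The genes described here are the receptors, kinases and transcription factors that carry interferon signals from the cell surface to the nucleus. The 9 genes were taken by name from the 54532 genes counted in each library, and their symbols were assigned from the Ensembl identifiers with GENCODE M21. They are the receptor chains Ifnar1, Ifnar2 and Ifngr1, the kinases Jak1 and Tyk2, the factors Stat2 and Irf9, and the interferon regulatory factors Irf7 and Irf1. Their RNA was measured by polyA RNA-seq in whole kidneys of 4 mice, namely 2 wild-type (WT) and 2 Zbp1 knockout (Zbp1-KO) animals. Both genotypes were female mice of the C57BL/6J background and both had been given pristane, an oil used to bring on lupus-like disease in mice, by intraperitoneal injection (500 µL) when 8 weeks old, and tissue was collected 8 months afterwards. The knockout removes exons 2 to 8 of Zbp1, the gene of a protein that detects nucleic acids in the Z conformation, from the germline. The WT mice had been purchased, so genotype and colony of origin cannot be told apart, and kidneys of mice without pristane were not analysed here.

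Type I interferons bind a receptor made of IFNAR1 and IFNAR2, which activates the kinases TYK2 and JAK1. STAT factors, STAT2 among them, are then phosphorylated and join IRF9 in ISGF3, the complex that turns on antiviral genes through the interferon-stimulated response element (ISRE). Interferon gamma instead signals through IFNGR1 and IFNGR2 to JAK1 and JAK2, and STAT dimers bind the gamma-activated sequence (GAS). IRF7 amplifies production of type I interferons, and IRF1 is a classical GAS-driven gene whose product activates antigen presentation genes. Several of these components are themselves interferon-inducible, and a raised interferon signature is a hallmark of lupus.

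Promoter sequence, from 250 bases before to 50 bases after each annotated start, was searched for the ISRE core (GAAA, any 2 bases, then GAAA) and the GAS element TTCNNNGAA on both strands, using RefSeq promoters on GRCm38.p6. All 9 genes were found in that table, with 11 windows in all. A GAS match lay in 1 window each of Irf1, Ifnar1 and Ifnar2, and 8.30% of all 32851 promoter windows held such a match. An ISRE match lay in the window of Stat2, and 3.44% of all windows held one. Neither motif was present in the windows of Ifngr1, Jak1, Tyk2, Irf9 or Irf7, which says nothing of sites elsewhere. The 250 bases before the start of Irf1 (chr11:53769764-53770013, plus strand) and of Stat2 (chr10:128270248-128270497, plus strand) are shown 5′ to 3′ because Irf1 had the largest difference among the 9 genes and Stat2 the only ISRE match. Capitals mark the match, which begins 90 bases before the start in Irf1 and 222 bases before it in Stat2.
Irf1: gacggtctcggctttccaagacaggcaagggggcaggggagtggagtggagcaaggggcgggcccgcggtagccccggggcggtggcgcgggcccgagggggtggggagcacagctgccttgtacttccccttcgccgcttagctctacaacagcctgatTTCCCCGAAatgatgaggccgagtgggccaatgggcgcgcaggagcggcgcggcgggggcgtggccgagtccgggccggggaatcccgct
Stat2: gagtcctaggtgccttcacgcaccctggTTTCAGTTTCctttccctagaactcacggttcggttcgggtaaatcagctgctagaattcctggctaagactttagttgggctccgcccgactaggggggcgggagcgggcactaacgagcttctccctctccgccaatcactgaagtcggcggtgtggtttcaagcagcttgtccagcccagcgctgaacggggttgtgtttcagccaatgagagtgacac

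The GAS matches of the receptor genes are given as 30-base stretches, from chr16:91485200-91485229 for Ifnar1 and chr16:91372559-91372588 for Ifnar2, both on the plus strand. The match begins 5 bases before the start in Ifnar1 and 214 bases before it in Ifnar2. A match is a description of the letters and not evidence that a factor binds there.
Ifnar1: ggcgggggcgTTCACGGAAggggcggggcg
Ifnar2: tgccaaggccTTCCTGGAAgaagagagtac

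Total counts ranged from 9878776 to 12921925 per library, and 49.5% to 61.5% of them fell on mitochondrially encoded genes. Values are given as CPM, counts per 1000000 of a library size scaled by the TMM method. Zbp1 itself had 94 and 125 counts in WT and 18 and 0 counts in Zbp1-KO, as labelled. In CPM these were 7.56 and 10.7 in WT and 1.33 and 0 in Zbp1-KO, where a count of 0 allows up to 0.323 CPM. On the log2 scale the difference was −3.64 ± 0.89 (SE), and the edgeR quasi-likelihood test gave it an adjusted p of 0.999. The kidney label was borne out by tubule markers, with at least 7178 counts of Slc34a1 and 1903 of Umod in each library. Their levels differed between libraries. Zbp1-KO 1 was lowest in Slc34a1 (529 CPM, against 923, 1032 and 995 CPM in WT 1, WT 2 and Zbp1-KO 2) and in Slc5a2 (8.48 CPM, against 45.0, 33.9 and 44.0 CPM). It was highest in 2 of 9 tubule and podocyte markers, among them Umod (383 CPM, against 244, 223 and 205 CPM). The part of this in the differences below was not tested. Replicates of a genotype differed well beyond sampling noise, with chi-square values of 17.3 (WT) and 31.6 (Zbp1-KO) per degree of freedom.

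Of the 9 genes, 8 had log2 fold changes (Zbp1-KO over WT) between −0.24 and 0.33, and Irf1 was the exception with 0.82. All 9 passed the filter on low counts and entered the edgeR test of 14908 genes. At an adjusted p under 0.05, 0 of the 9 were called in either direction, where 0.0134% of all tested genes were called, all of them higher in Zbp1-KO. At an unadjusted p under 0.05, 1 gene (Irf1) was higher and 0 were lower, against 1.91% of all tested genes higher and 1.97% lower. Both Zbp1-KO libraries lay above both WT libraries for Irf1 and Irf9, and for 16% of all tested genes. For 0 of the 9 did both Zbp1-KO libraries lie below both WT libraries, against 16.3% of all tested genes, so that 2 of the 9 were separated in either direction beside 32.3% of all tested genes. The median log2 fold change of the 9 genes was −0.03, beside −0.01 over all tested genes. With 2 libraries in a group, exact permutation of the labels yields no two-sided p smaller than 0.333, so the calls rest on the spread that edgeR shares across genes.

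**Figure D1:**
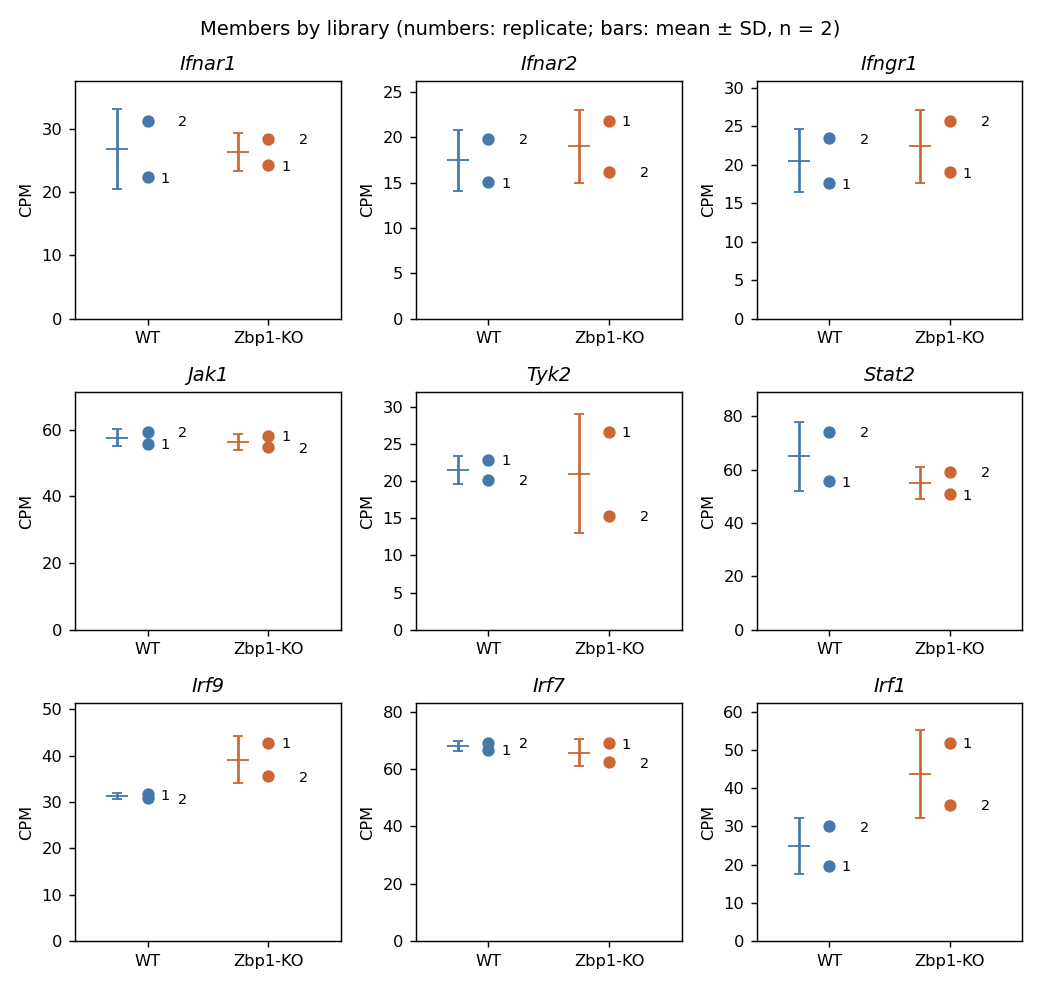
Level of each of the 9 genes in CPM (vertical axis, starting at 0) in the 2 WT and 2 Zbp1-KO libraries, as points numbered by replicate, with the mean and SD of each group beside them. The groups are separate for Irf9 and Irf1 and overlap for the other 7 genes.

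The receptor chains were at similar levels in both genotypes. Ifnar1 (ENSMUSG00000022967, chromosome 16, 91485238 to 91507441, plus strand), the chain that docks TYK2, measured 22.4 and 31.3 CPM in the WT libraries against 24.3 and 28.4 CPM in the Zbp1-KO libraries. Both Zbp1-KO values lay between the WT values. Its log2 fold change was −0.03 ± 0.25 (SE, edgeR, adjusted p = 0.999), with a 95% interval from −0.57 to 0.51. Ifnar2 (ENSMUSG00000022971, chromosome 16, 91372783 to 91405589, plus strand), the high-affinity chain that docks JAK1, measured 15.0 and 19.8 CPM in the WT libraries against 21.8 and 16.2 CPM in the Zbp1-KO libraries. The groups overlapped, with the highest value in Zbp1-KO 1 and the lowest in WT 1. The log2 fold change was 0.13 ± 0.28 (SE), with a 95% interval from −0.48 to 0.74. Ifngr1 (ENSMUSG00000020009, chromosome 10, 19591949 to 19610229, plus strand), the ligand-binding chain of the interferon gamma receptor, measured 17.6 and 23.4 CPM in the WT libraries against 19.0 and 25.7 CPM in the Zbp1-KO libraries. These groups overlapped as well, and the log2 fold change was 0.12 ± 0.27 (SE), with a 95% interval from −0.46 to 0.71.

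The kinases differed from each other in how steady they were. Jak1 (ENSMUSG00000028530, chromosome 4, 101152367 to 101265282, minus strand), which serves both the type I and the gamma receptor, measured 55.8 and 59.4 CPM in the WT libraries against 58.1 and 54.7 CPM in the Zbp1-KO libraries. Its 4 values spanned 0.12 on the log2 scale, the narrowest span of the 9 genes. The log2 fold change was −0.03 ± 0.19 (SE), with a 95% interval from −0.44 to 0.38, equal to 0.737-fold to 1.30-fold. Tyk2 (ENSMUSG00000032175, chromosome 9, 21104068 to 21131243, minus strand), the kinase bound to IFNAR1, measured 22.8 and 20.2 CPM in the WT libraries against 26.6 and 15.3 CPM in the Zbp1-KO libraries. The Zbp1-KO libraries thus held both the highest and the lowest value, with a gap of 0.79 on the log2 scale against a median gap of 0.39 over all tested genes in that pair of libraries. The log2 fold change of Tyk2 was −0.03 ± 0.29 (SE), with a 95% interval from −0.66 to 0.60, and moved to −0.50 without Zbp1-KO 1 and to 0.30 without Zbp1-KO 2, neither of them called.

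Among the subunits of ISGF3, Stat2 and Irf9 lay on opposite sides of 0. Stat2 (ENSMUSG00000040033, chromosome 10, 128270559 to 128292849, plus strand), the subunit that brings the activation domain, measured 55.7 and 74.2 CPM in the WT libraries against 50.8 and 59.1 CPM in the Zbp1-KO libraries. The groups overlapped, and the log2 fold change was −0.24 ± 0.21 (SE), with a 95% interval from −0.70 to 0.21. Irf9 (ENSMUSG00000002325, chromosome 14, 55603571 to 55610030, plus strand), the subunit that recognizes the ISRE, measured 31.7 and 30.8 CPM in the WT libraries against 42.8 and 35.5 CPM in the Zbp1-KO libraries. Both Zbp1-KO values were above both WT values. The WT mean was 31.2 ± 0.634 CPM and the Zbp1-KO mean 39.2 ± 5.10 CPM (both SD, n = 2), and the log2 fold change was 0.33 ± 0.21 (SE), with a 95% interval from −0.14 to 0.79 and an unadjusted p of 0.149 in edgeR. Irf9 shares 123 exon bases on the same strand with Rnf31, which had 244 and 330 counts in WT and 570 and 261 counts in Zbp1-KO. How reads in these bases were assigned is not given in the sources used here.

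The interferon regulatory factors split, with Irf7 level and Irf1 higher in Zbp1-KO before adjustment. Irf7 (ENSMUSG00000025498, chromosome 7, 141262706 to 141266481, minus strand) measured 66.7 and 69.1 CPM in the WT libraries against 69.0 and 62.4 CPM in the Zbp1-KO libraries. The groups overlapped, and the 4 values spanned 0.15 on the log2 scale. Its log2 fold change was −0.05 ± 0.19 (SE), with a 95% interval from −0.45 to 0.36, equal to 0.732-fold to 1.28-fold. Irf1 (ENSMUSG00000018899, chromosome 11, 53770014 to 53778374, plus strand), whose GAS-bearing promoter is printed above, had 245 and 351 counts in WT and 704 and 331 counts in Zbp1-KO. In CPM these were 19.7 and 30.02 in WT and 51.9 and 35.7 in Zbp1-KO. Both Zbp1-KO libraries were above both WT libraries, and Zbp1-KO 1 stood highest. The WT mean was 24.9 ± 7.29 CPM and the Zbp1-KO mean 43.8 ± 11.5 CPM (both SD, n = 2). The log2 fold change was 0.82 ± 0.27 (SE), a fold of 1.77 with a 95% interval from 1.18 to 2.64. Irf1 ranked 89 of 14908 genes by p (unadjusted p = 0.00977), but its adjusted p was 0.999 in edgeR, so the difference did not pass the correction. On the opposite strand, exons of Gm17334 overlap 135 exon bases of Irf1, with 12 and 2 counts in WT and 0 and 7 counts in Zbp1-KO, and exons of Phrf1 overlap 45 bases of Irf7. The libraries were described as strand-specific, but the strand option used in counting is not given in the sources used here, so whether reads in such bases were told apart is unknown.

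**Figure D2:**
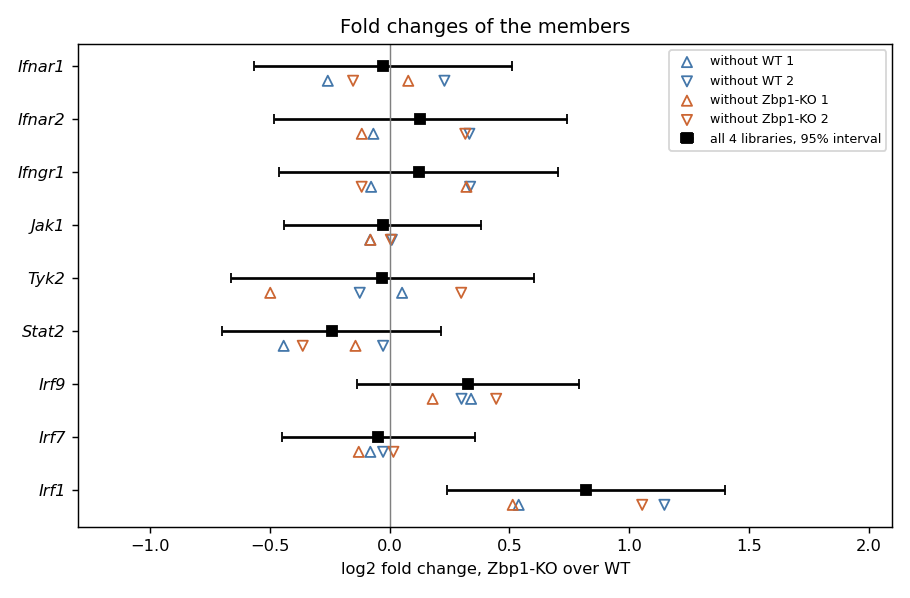
Log2 fold change of each gene, Zbp1-KO over WT (horizontal axis), as a black square with its 95% interval from edgeR, and as open triangles below it after leaving out 1 library. The interval excludes 0 for Irf1, from 0.24 to 1.40, and spans 0 for the other 8 genes.

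The size of the Irf1 difference depended on the libraries used. Without Zbp1-KO 1 its log2 fold change was 0.51 (unadjusted p = 0.0935, edgeR), and without WT 1 it was 0.54 (unadjusted p = 0.108, edgeR). Without WT 2 it was 1.15 and without Zbp1-KO 2 it was 1.05, with adjusted p-values of 0.563 and 0.131 in edgeR. In these fits the library left alone in its group is assumed to vary like the others. The sign of Irf1, Irf9 and Stat2 was the same in all 14 alternatives tried, whereas Ifnar1, Ifnar2, Ifngr1, Jak1, Tyk2 and Irf7 changed sign when 1 library was left out. The smallest count of any of the 9 genes, 142 for Tyk2 in Zbp1-KO 2, carries a Poisson error of 8.39%. For Irf1 the largest such error was 6.39%, small beside its span of 1.39 on the log2 scale over the libraries. For Jak1 and Irf7 it was 4.44% and 4.16%, which is not small beside their log2 spans of 0.12 and 0.15.

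Levels between genes were compared per kilobase of annotated exon, with the exons of all annotated transcripts of a gene merged. This length can exceed that of the transcripts present, which was not measured. For Irf7 its 3776 bases cover the whole gene, from 141262706 to 141266481. The order below is thus one of these ratios and not of transcript numbers. Irf7 was highest at 17.7 CPM per kb, and its lowest library (16.5) was above the highest library of each of the other 8 genes. Next came Stat2 at 10.1, Irf1 at 8.63, Jak1 at 7.89, Ifngr1 at 7.54 and Irf9 at 6.54 CPM per kb. The ranges of each of these over the 4 libraries overlapped that of its neighbour in the order. The type I receptor chains had lower means, with 5.47 CPM per kb for Ifnar2 and 4.48 for Ifnar1, and Tyk2 had the lowest at 3.09. Their ranges were not set apart from those above. Ifnar2 (4.52 to 6.56) overlapped Irf9 (5.72 to 7.94), and Ifnar1 (3.76 to 5.27) overlapped Irf1 (4.96 to 13.1). Tyk2 (2.23 to 3.88) overlapped Ifnar1.

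**Figure D3:**
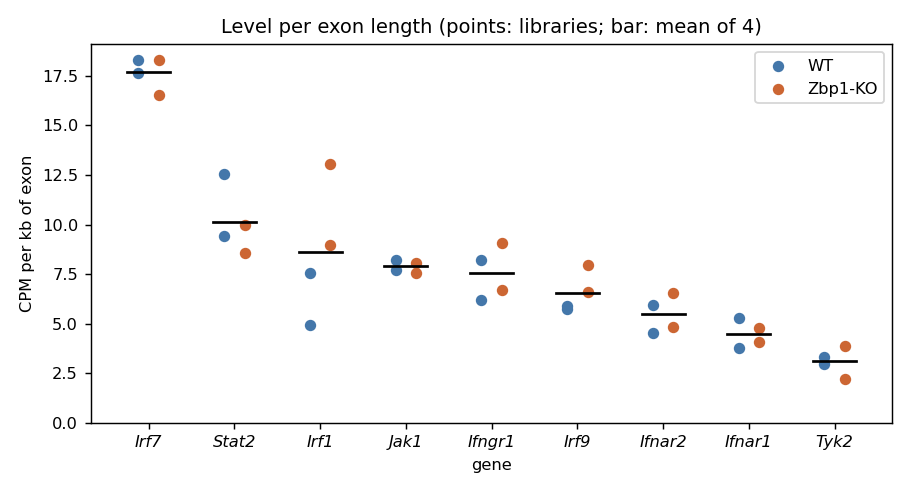
Level of each gene in CPM per kilobase of annotated exon (vertical axis, starting at 0), with points for the 4 libraries and a bar at their mean, ordered by the mean. Irf7 lies above the other genes in every library, from 16.5 to 18.3.

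The rest of the pathway was examined with 93 further genes, grouped by role. Ligands were nearly undetected. Of 21 type I, gamma and lambda interferon genes, 19 had 0 counts in all 4 libraries, where 3 counts, the limit that a count of 0 allows, correspond to 0.221 to 0.323 CPM, and the other two, Ifnab and Ifnz, had 1 count each in 1 library. A difference in ligands was thus not detectable at this depth. Among the other 72 genes, 71 were tested, and 0 were called at an adjusted p under 0.05. Before adjustment (p under 0.05), 16 were higher and 2 were lower in Zbp1-KO, beside the shares of 1.91% and 1.97% of all tested genes given above. Their median log2 fold change was 0.28. With 1 library left out, this median was 0.036 without Zbp1-KO 1, 0.29 without WT 1, 0.47 without Zbp1-KO 2 and 0.34 without WT 2. The median of all tested genes lay between −0.026 and 0.019 in these fits. They tested 71 (without WT 1) or 72 of the pathway genes.

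Other signaling components were examined next. The 3 further receptor chains, 2 JAK kinases, 6 STAT factors and 8 tested IRF-related genes had 0 members past the unadjusted threshold, and their median log2 fold changes were 0.17, −0.29, 0.23 and −0.03. The most abundant of each were Il10rb, a chain shared by lambda interferon and interleukin 10 receptors (log2 fold change 0.17 ± 0.22 SE), Jak3, the lymphocyte kinase of common gamma chain receptors (−0.18 ± 0.31), Stat6, the interleukin 4 factor (0.23 ± 0.19), and Irf3, which induces interferon beta after nucleic acid sensing (−0.25 ± 0.19). Irf3 measured 75.5 and 83.6 CPM in the WT libraries against 63.4 and 70.4 CPM in the Zbp1-KO libraries. Both Zbp1-KO values were below both WT values, as for 16.3% of all tested genes.

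Of 13 negative regulators, 2 were higher and 1 was lower before adjustment (p under 0.05), beside 1.91% and 1.97% of all tested genes. After adjustment 0 were called. Ptpn6, the hematopoietic phosphatase SHP-1, measured 17.5 and 15.6 CPM in the WT libraries against 30.3 and 27.5 CPM in the Zbp1-KO libraries (log2 fold change 0.81 ± 0.24 SE). Usp18, which removes ISG15 and blocks IFNAR2 signaling, measured 5.47 and 6.93 CPM in the WT libraries against 17.3 and 8.08 CPM in the Zbp1-KO libraries (1.04 ± 0.42). Pias4, a SUMO ligase that restrains STAT signaling, measured 26.9 and 28.99 CPM in the WT libraries against 19.7 and 18.5 CPM in the Zbp1-KO libraries (−0.55 ± 0.23). The groups did not overlap for any of these 3 genes, beside 32.3% of all tested genes. The 3 were named for their unadjusted p on the same libraries, which favors separate groups. The most abundant regulator, the phosphatase gene Ptpn11, was close to level (0.07 ± 0.21).

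Targets were then divided by the interferon that classically induces them, although many respond to both. Of 20 type I targets, 3 were higher and 1 was lower by the same measure, beside 1.91% and 1.97% of all tested genes. The median log2 fold change was 0.32. The higher genes were the antiviral GTPase gene Mx2 (log2 fold change 1.94 ± 0.64 SE), the viperin gene Rsad2 (0.78 ± 0.22) and the oligoadenylate synthetase gene Oas2 (0.64 ± 0.20). Oasl1, whose product restrains Irf7 translation, was the lower gene, at 6.51 and 5.64 CPM in the WT libraries against 2.06 and 2.48 CPM in the Zbp1-KO libraries (−1.42 ± 0.57). Ifit3, the most abundant of this list, stood at 64.2 and 74.2 CPM in WT against 96.0 and 47.9 CPM in Zbp1-KO, so that its groups overlapped. Both Zbp1-KO libraries lay above both WT libraries for 9 of the 20 genes and below them for 3. Among all tested genes these shares were 16% and 16.3%. The median of the type I targets was 0.16 without Zbp1-KO 1, 0.097 without WT 1, 0.46 without WT 2 and 0.48 without Zbp1-KO 2.

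Of 19 interferon gamma targets, 11 were higher and 0 were lower by the unadjusted p, beside 1.91% and 1.97% of all tested genes. The median log2 fold change was 0.80. None passed the adjustment in the edgeR quasi-likelihood test, while 1 (Nlrc5) did so in the exact and likelihood ratio tests of edgeR and 0 did so in DESeq2 and limma-voom. In other quasi-likelihood fits 5 passed with every gene of 1 count or more kept (Gbp2, Gbp4, Igtp, Iigp1 and Nlrc5), and 1 passed without WT 2 (Igtp) and without Zbp1-KO 2 (Gbp2). Nlrc5, the transactivator of MHC class I genes, measured 9.81 and 12.8 CPM in the WT libraries against 30.5 and 27.6 CPM in the Zbp1-KO libraries, the groups being well separated (log2 fold change 1.36 ± 0.26 SE, adjusted p = 0.452 in edgeR). The guanylate-binding protein genes among the 11 were Gbp5 (1.34), Gbp2 (1.16), Gbp4 (1.06), Gbp7 (0.65) and Gbp3 (0.56), and the immunity-related GTPase genes were Igtp (1.18) and Irgm1 (0.80). The immunoproteasome genes were Psmb10 (0.71) and Psmb9 (0.66), and the last of the 11 was the MHC class I light chain gene B2m (0.51). Of the 11, the groups did not overlap for Nlrc5, Gbp5, Gbp3, Gbp7, Psmb9, Psmb10 and B2m and overlapped for Gbp2, Gbp4, Igtp and Irgm1. The groups were separate for 32.3% of all tested genes, and naming the 11 by p on the same libraries favors separate groups.

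**Figure D4:**
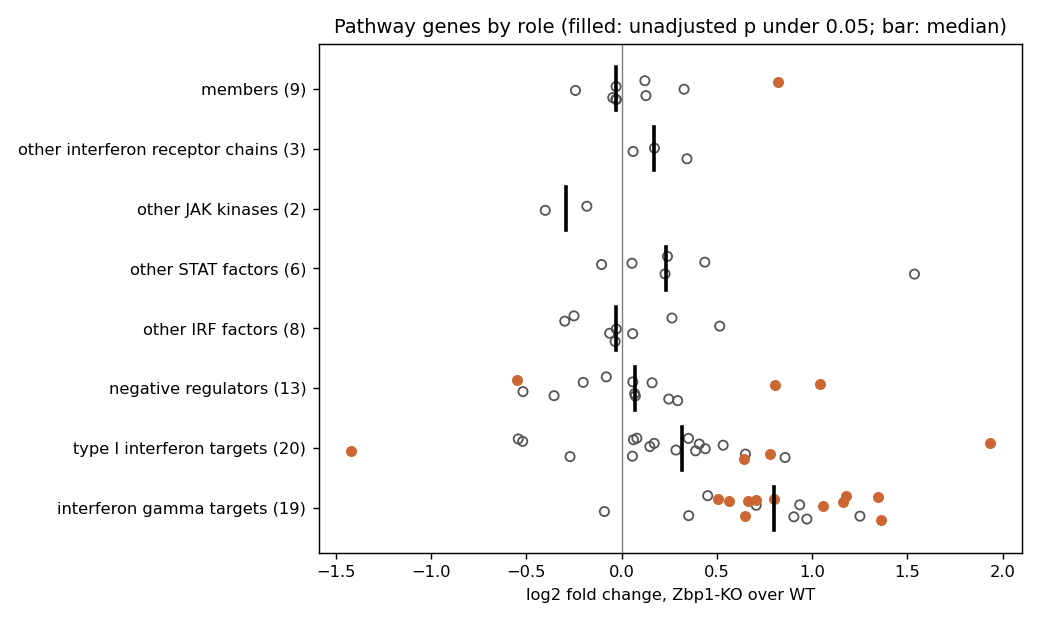
Log2 fold change, Zbp1-KO over WT (horizontal axis), of each tested gene by role, with the 9 genes together in 1 row (number tested in brackets), with filled points at an unadjusted p under 0.05 and a bar at each median. The medians of the rows lie between −0.29 and 0.32 except for interferon gamma targets, at 0.80.

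Zbp1-KO 1 was the highest library for 18 of the 19 interferon gamma targets, 11 of the 20 type I targets and 4 of the 9 genes described first, beside 26.5% of all tested genes. Zbp1-KO 2 was the lowest library for 3 of the 9 genes, beside 27.2% of all tested genes. Igtp is an example, at 11.4 and 41.6 CPM in the WT libraries against 85.5 and 33.9 CPM in the Zbp1-KO libraries. Without Zbp1-KO 1 the median of the interferon gamma targets was 0.18, and 2 of 19 were higher at an unadjusted p under 0.05, where 3.02% of all tested genes were higher in that fit. Without WT 1 the median was 0.44, again with 2 of 19 higher, where 1.31% of all tested genes were higher. Without WT 2 and without Zbp1-KO 2 the medians were 1.25 and 1.26, with 15 and 17 of 19 higher, where 1.16% and 3.79% of all tested genes were higher.

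Irf1, whose log2 CPM ranged most over the libraries among the 9 genes (1.39), was compared with the other 79 tested genes of the lists by the distance between their centred log2 CPM over the 4 libraries. The nearest were Psmb10 (distance 0.22), B2m (0.32) and Gbp3 (0.35), all from the interferon gamma list. This describes a likeness over 4 libraries and was not tested.

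**Figure D5:**
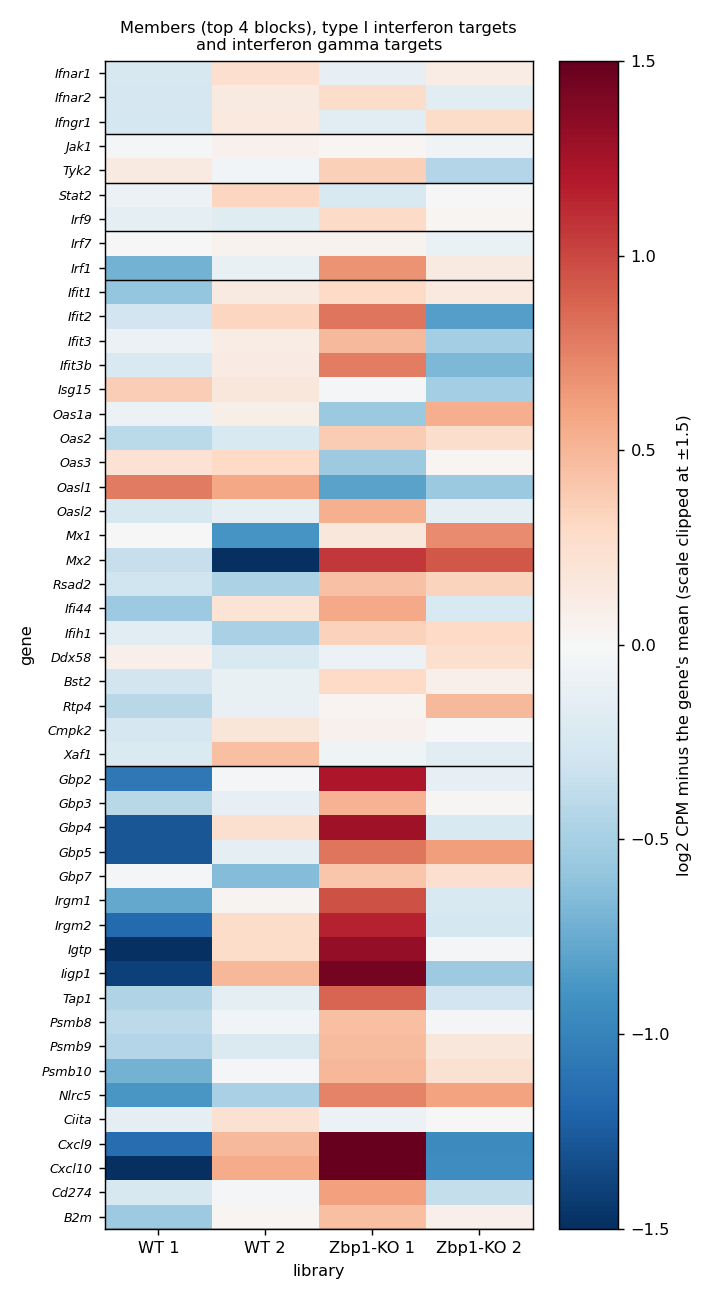
Log2 CPM minus each gene's mean over the 4 libraries (color, clipped at ±1.5) for the 9 genes in the top blocks, then type I interferon targets and interferon gamma targets (rows), by library (columns). Like Irf1, 16 of the 19 interferon gamma targets are lowest in WT 1 and highest in Zbp1-KO 1. Of these, 7 also have Zbp1-KO 2 above WT 2 as Irf1 does, while Jak1 and Irf7 stay near 0. The share of all tested genes in either order was not measured.

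Markers of leukocytes and other cells were measured beside these differences, and the lists did not all go the same way. Log2 fold changes lay above 0 for 2 of 4 tested B and plasma cell markers and 2 of 2 of dendritic cells. They did so for 0 of 2 of plasmacytoid dendritic cells, 0 of 3 of neutrophils and 2 of 5 of endothelium. Of the markers in these lists, 0 passed an unadjusted p of 0.05 in edgeR. Summed T cell markers came to 11.3 and 8.72 CPM in the WT libraries against 19.3 and 17.7 CPM in the Zbp1-KO libraries, with 6 of 6 tested markers above 0 in log2 fold change and 0 past an unadjusted p of 0.05. Summed pan-leukocyte markers overlapped, at 90.7 and 74.2 CPM in the WT libraries against 120 and 90.5 CPM in the Zbp1-KO libraries. Zbp1-KO 1 was highest in 4 of 5 genes, beside 26.5% of all tested genes. Both Zbp1-KO libraries lay above both WT libraries in 2 of the 5 and below them in 1 (Cd53), beside 16% and 16.3% of all tested genes. Summed macrophage markers overlapped (272 and 184 CPM in WT against 262 and 252 CPM in Zbp1-KO), while 6 of 7 lay above 0 in log2 fold change. For 3 of the 7 (Adgre1, C1qa and C1qb) both Zbp1-KO libraries lay above both WT libraries, as for 16% of all tested genes. Summed neutrophil markers were highest in WT 1 (26.7 CPM, with 5.39 CPM in WT 2 and 8.996 and 13.03 CPM in the knockouts), with Ly6g at 0 counts in every library and S100a8 and S100a9 detected in each. Of 6 tested fat markers 5 were higher at an unadjusted p under 0.05, beside 1.91% of all tested genes. After adjustment 1 of the 6 was called higher. Summed, they came to 85.7 and 107 CPM in WT against 224 and 185 CPM in Zbp1-KO. Of 8 immediate-early genes, which respond quickly to stress, 7 were lower by the same measure, beside 1.97% of all tested genes. Summed, these came to 440 and 166 CPM in WT against 91.7 and 102 CPM in Zbp1-KO. Both Zbp1-KO libraries lay below both WT libraries for all 8, beside 16.3% of all tested genes. The part of these markers in the Irf1 and target differences was not tested, and in whole kidney a change in the number of cells of a type and a change in RNA per cell cannot be told apart.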

How the data were processed

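Kidney polyA RNA libraries of 2 WT and 2 Zbp1-KO mice were grouped by their titles. Per the study's methods and the labels, the authors trimmed read pairs with Trimmomatic, aligned them to mm10 with HISAT2 and deposited raw counts of uniquely mapped pairs per Ensembl gene from featureCounts. Versions, annotation release and the strand setting of counting are not given in the sources used here, and reads carry no molecular identifiers, so intervals cover counting error and library spread only. Of 54532 identifiers, 54495 matched GENCODE M21 (GRCm38, the same assembly as mm10).

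Genes were tested with edgeR 4.0.16 (R 4.3.3): filterByExpr (minimum count 10, minimum total 15), TMM, genotype as the only term, the quasi-likelihood F test (two-sided) with a prior count of 0.125, and Benjamini-Hochberg adjustment over 14908 genes, called at an adjusted p under 0.05. SE is the absolute log2 fold change over the square root of F, and 95% intervals use the t distribution with edgeR's degrees of freedom. The fit was checked on simulated counts. CPM are per 1000000 TMM-scaled counts. Log2 CPM for distances used a prior count of 2.

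The 9 genes and the lists were chosen with earlier results of these data known. Named besides the 9 genes were Zbp1, list genes at an unadjusted p under 0.05, the most abundant gene of each list (some genes are not reported here) and the nearest 3 genes to Irf1. The overlapping genes and the genes of the closing observations were chosen after the values were seen. Alternatives included other scalings, filters and tests, DESeq2 1.42.0, limma-voom 3.58.1, a replicate block and each library left out. The edgeR p-values set each genotype difference against the spread between these libraries, which is shared across genes.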

Additional observations from a re-analysis of the deposited data

How the results depend on the processing

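With groups of 2 and a common biological coefficient of variation of 0.304, differences as small as those of most of the 9 genes could not be told from 0. None of the 9 was called in any of the 14 alternatives, and Irf1 had adjusted p-values from 0.131 to 1.00 in edgeR, DESeq2 or limma-voom. No scaling moved the median of all genes by more than 0.1.

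Over all genes, 2 were called higher and 0 lower. Keeping every gene with a count of 1 or more made these 14 and 27. The replicate block gave 4 and 7, the exact test of edgeR 6 and 8, its likelihood ratio test 10 and 16, DESeq2 5 and 4, and limma-voom 4 and 4. With a mean of at least 1 CPM, and without mitochondrially encoded genes, 1 gene was called lower. Of the other pathway genes, 0 were called higher, but 5 were so with every gene of 1 count or more kept (Gbp2, Gbp4, Igtp, Iigp1 and Nlrc5) and 1 (Nlrc5) by the exact or likelihood ratio test. The first setting tests more genes of low count, and otherwise the cause was not tested. Zbp1 was called lower by the quasi-likelihood test with the widest filter (−3.65). With the main filter it was called lower by the exact (−3.67) and likelihood ratio (−3.67) tests of edgeR.

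With 1 library left out, called genes ran from 0 to 9 higher and 0 to 28 lower, other pathway genes called higher from 0 to 1, the 9 genes higher at an unadjusted p under 0.05 from 0 to 1, their median from −0.080 to 0.23, and Zbp1 from −4.82, a bound with 3 counts in place of 0, to −2.78. Log2 fold changes ran from −0.26 to 0.23 for Ifnar1, −0.12 to 0.33 for Ifnar2, −0.12 to 0.34 for Ifngr1, −0.081 to 0.0094 for Jak1, −0.50 to 0.30 for Tyk2 and −0.13 to 0.016 for Irf7, so each of these 6 changed sign. Without Zbp1-KO 1 or WT 1, no gene of the 9 passed the unadjusted threshold.

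The replicate block left Irf1 at 0.82 and called 0 of the 9 genes. No pairing of the replicate numbers was detected: the difference WT 1 minus WT 2 correlated at 0.00399 with Zbp1-KO 1 minus Zbp1-KO 2 across genes.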

Other observations

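In the genes named next, WT 1 was the highest or the lowest library. The share of all tested genes for which this holds was not measured. A single library is often at an end, as Zbp1-KO 1 was highest for 26.5% and Zbp1-KO 2 lowest for 27.2% of all tested genes. Irf4, the plasma cell and lymphocyte factor, had 33 counts in WT 1 and 0, 2 and 5 counts in WT 2, Zbp1-KO 1 and Zbp1-KO 2. Jchain, which encodes the joining chain of secreted antibodies, had 1460 counts in WT 1 and 276, 579 and 503 in the same order. Socs3, a feedback inhibitor of cytokine receptors, measured 13.8 CPM in WT 1 against 3.51, 3.83 and 8.40 CPM. Cish, a related inhibitor, measured 19.2 CPM in WT 1 and 7.70 CPM in WT 2, with 16.9 and 15.1 CPM in Zbp1-KO between them. The chemokine genes Cxcl9 and Cxcl10, classical interferon gamma targets, had their lowest CPM in WT 1 (4.99 and 2.90) and their highest in Zbp1-KO 1 (34.4 and 32.3). Irf4 did not pass the filter on low counts, the other genes were not called by edgeR, and all were chosen after their values were seen.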
